A study of Homo sapiens with 3 samples.

Results

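Expression arrays of 1 human colorectal cancer cell line are compared here: 1 array of cells labelled as overexpressing LATS2N(1-625), a fragment of the kinase LATS2 that spans residues 1 to 625, and 1 array of cells carrying the empty vector (control). They are 2 of the 3 arrays of the study, and the array of cells labelled as overexpressing full length LATS2 is given beside them. The sample labels name the line SW620, infected with the respective virus and grown in DMEM with serum, whereas the design text names SW480 and describes stable expression, and the arrays are named below by the sample labels. SW620 is a line from a colorectal carcinoma metastasis. The sources used here do not say whether a line is 1 clone or a pool, and no second culture is given for any line, so no replicate, SD or test exists for any difference below.

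LATS1 and LATS2 are the last kinases of the Hippo pathway. MST1 and MST2 with the adaptor SAV1 activate them, MOB1 proteins assist them, and they phosphorylate the coactivators YAP and TAZ, which are then held outside the nucleus and away from the TEAD transcription factors. The kinase domain of LATS2 lies towards its C-terminus, so the fragment keeps the N-terminal part and ends before that domain.

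Signals are the deposited probe set intensities in arbitrary units, and ratios are log2 of LATS2N over control after signals below a floor of 50.5 (the median of all probe sets of the 3 arrays) were raised to it. A gene is represented by its brightest probe set, and 13246 genes reached the floor on at least 1 of the 2 arrays. Each array had a mean of 500 after trimming 2% at each end. The manufacturer's 18 spike-in probe sets had a median log2 ratio of 0.11 (from -0.08 to 0.53), while 3 probe sets for 18S ribosomal RNA had -0.70 (from -1.06 to -0.37). The 3-prime to 5-prime signal ratio of ACTB was 1.68 on the control and 1.85 on the LATS2N array. GAPDH went the other way, with 1.02 on control and 0.958 on LATS2N. The part these differences have in the results below was not tested. Both LATS2 probe sets above the floor were alike on the arrays, with 385 in control, 377 in LATS2 and 409 in LATS2N cells for one and 206, 219 and 219 for the other. Their place in the transcript is not known here, so LATS2 does not check the labels.

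Between the arrays most genes lay close to 1 line. The median log2 ratio over all genes was 0.02, and 53.6% of genes had a ratio above 0. At least 2-fold higher on the LATS2N array were 125 genes (0.944% of those reaching the floor), and 75 (0.566%) were at least 2-fold lower. The dimmer array lay at the floor, so that the fold is a bound, for 45 genes on the higher and 38 on the lower side. The scatter between probe sets of 1 gene gives the error available within these arrays. As a robust SD on the log2 scale it was 0.48 for genes whose dimmer array read from the floor to 100. It narrowed to 0.34 from 100 to 200, 0.24 from 200 to 500, 0.16 from 500 to 2000 and 0.09 beyond. It covers no difference between cultures. For this reason genes with a signal of 500 or more on the brighter array carry most of what follows. There were 7341 of these, with a median log2 ratio of 0.01, and 76 (1.04%) were at least 1.5-fold higher and 55 (0.749%) at least 1.5-fold lower. Only 3 (0.0409%) and 2 (0.0272%) reached 2-fold, with the largest folds at 2.35 higher and 2.32 lower.

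**Figure D1:**
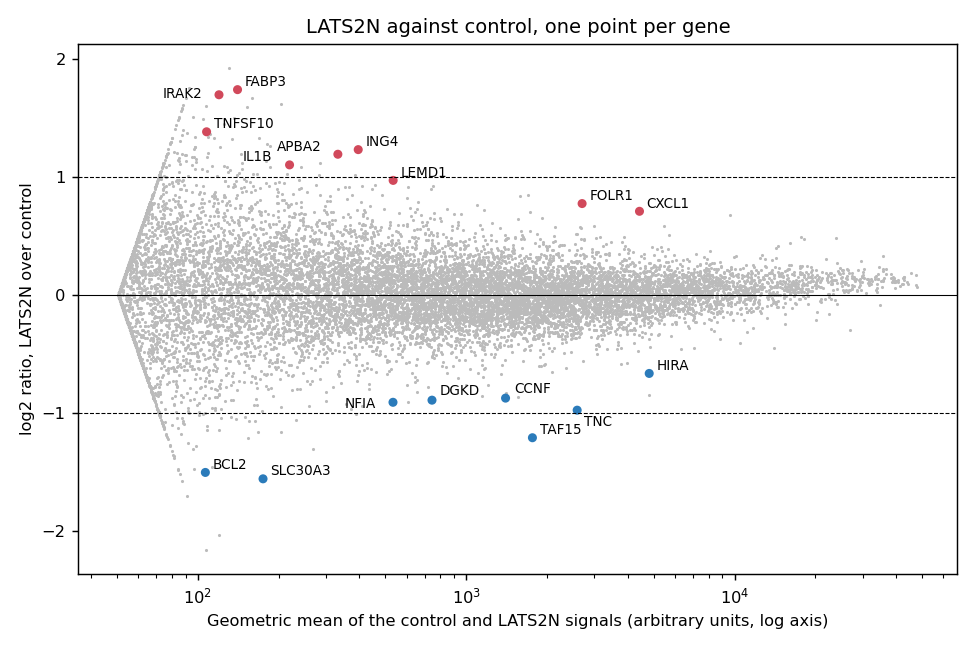
Each point is 1 of 13246 genes, with the geometric mean of its control and LATS2N signals on the horizontal log axis and its log2 ratio of LATS2N over control on the vertical axis. Dashed lines mark 2-fold, and coloured points are genes described in the text (red higher, blue lower on the LATS2N array); ratios narrow from left to right, and TAF15, at -1.21, stands out among bright genes.

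Of the 76 bright higher genes, 23 had 2 or more probe sets that all went up, 40 had 1 usable probe set and 13 had probe sets in both directions. The highest with agreeing probe sets was ING4, a subunit of a histone acetyltransferase complex that reads methylated histone H3. Its brightest probe set read 258 in control, 561 in LATS2 and 607 in LATS2N cells, a log2 ratio of 1.23 (spread between probe sets at this signal 0.24), or 2.35-fold higher. Both arrays with a LATS2 construct lay above the control. A second ING4 probe set read 285 in control, 436 in LATS2 and 343 in LATS2N cells, with a smaller ratio of 0.27. APBA2, a neuronal-type adaptor that binds the amyloid precursor protein, read 219.6 in control, 456 in LATS2 and 503 in LATS2N cells (2.29-fold higher, log2 1.19). Its other probe set read 111, 127 and 200.1 on the same arrays, with a ratio of 0.85. In both probe sets LATS2N was highest and control lowest.

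Several of the other bright higher genes encode enzymes of nucleoside and lipid metabolism. ADA, adenosine deaminase, read 266 in control, 424 in LATS2 and 502 in LATS2N cells (log2 0.92), and its second probe set gave 1.08. ACSL5, which activates long-chain fatty acids, read 279 in control, 438 in LATS2 and 503 in LATS2N cells (log2 0.85, second probe set 0.36). PLAAT3, a phospholipase and acyltransferase, had 305, 421 and 504 in the same order (log2 0.72). For all 3 genes the order was control, LATS2, LATS2N from low to high. APOC1, an apolipoprotein, read 477 in control, 419 in LATS2 and 797 in LATS2N cells (log2 0.74), so LATS2 did not exceed control there. Its second probe set read 257, 344 and 421 on the same arrays (0.71), with LATS2 above control. MMUT, the mitochondrial methylmalonyl-CoA mutase, read 639 in control, 974 in LATS2 and 1004 in LATS2N cells (log2 0.65), but its second probe set gave 0.07. The same weakness holds for the glycosidase gene MAN1B1, at 0.70 and 0.03, and for LIN52, a subunit of the DREAM cell cycle repressor complex, at 0.72 and 0.08.

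Surface and secreted products formed another part of the bright higher genes. YPEL5 is given with them but is not counted as such a product. FOLR1, the folate receptor alpha, read 2065 in control, 2432 in LATS2 and 3537 in LATS2N cells, a log2 ratio of 0.78 against a spread of 0.09. Its second probe set read 343, 628 and 570.5 (0.73), with the LATS2 array highest there, so the order of the 2 LATS2 arrays differed between probe sets while control was lowest in both. FXYD5 and FXYD3 encode small regulators of the sodium pump. FXYD5 read 844 in control, 1114 in LATS2 and 1436 in LATS2N cells (log2 0.77, second probe set 0.55). FXYD3 read 493 in control, 424 in LATS2 and 785 in LATS2N cells (log2 0.67), yet its second probe set differed by 0.09 only. SBSPON, a secreted matrix protein, read 1521 in control, 2485 in LATS2 and 2396 in LATS2N cells (log2 0.66, other probe sets 0.42 and 0.54). TMEM139 had 709, 1304 and 1140.0 and YPEL5 507, 849 and 789 in the same order. In the bright probe sets of these last 3 genes both LATS2 arrays stood above control, with LATS2 at or above LATS2N. The dim SBSPON probe set read 53.8 in control, 38.9 in LATS2 and 78.3 in LATS2N cells, with LATS2 below the floor.

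Among bright genes read by 1 usable probe set, LEMD1, a cancer-testis gene, read 381 in control, 219 in LATS2 and 748 in LATS2N cells (log2 0.97), so that it was highest on LATS2N and lowest on LATS2. DHRS3, which reduces retinaldehyde, read 332, 405 and 634 (log2 0.93) on control, LATS2 and LATS2N. ANXA6, a calcium-dependent membrane-binding protein, read 296, 504 and 561 (0.92), PNRC1, a nuclear receptor coregulator, 442, 502 and 833 (0.91), and C17orf75 539, 724 and 1008 (0.90). LATS2N was the highest array for each of these. COL1A1, a collagen chain of fibroblasts, read 325, 596 and 607 by its bright probe set (0.90), while its other 4 probe sets lay below the floor on every array, so that a COL1A1 transcript is not supported by them. ADA, APBA2 and ACSL5 lie just inside the limit of 500 at 502, 503 and 503. Just outside it were GSTCD at 477 (log2 0.82), SERPINE2 at 487 (0.92) and DUSP3 at 490.3 (0.61).

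**Figure D2:**
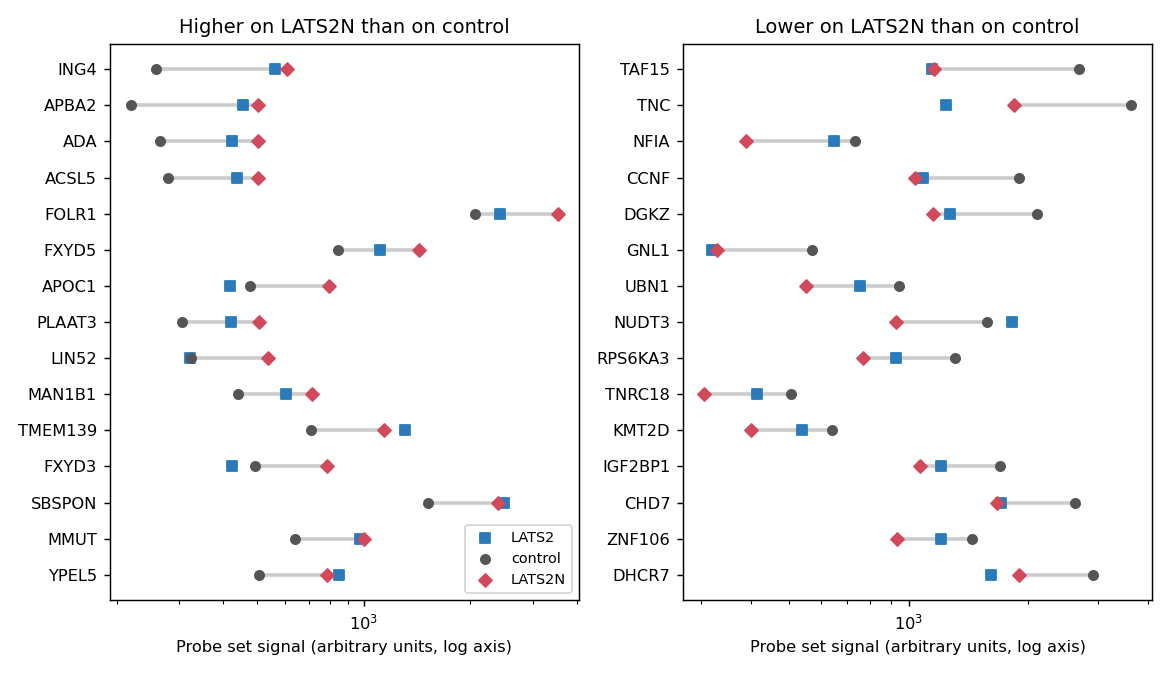
Signal of the representative probe set on each of the 3 arrays (horizontal log axis, arbitrary units) for the 15 genes with the largest ratio in each direction among genes with a signal of 500 or more, agreeing probe sets and 1.5-fold or more. Circles are control, squares LATS2 and diamonds LATS2N, 1 array each, joined from control to LATS2N; ING4 runs from 258 to 607, and TAF15 from 2686 to 1159.

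On the lower side, 22 of the 55 bright genes had 2 or more probe sets all down, 15 had 1 usable probe set and 18 had probe sets in both directions. TAF15, an RNA-binding protein related to EWSR1, was lowest by fold. It read 2686 in control, 1147 in LATS2 and 1159 in LATS2N cells, a log2 ratio of -1.21 against a spread of 0.16, or 2.32-fold lower. Both LATS2 arrays lay at the same level, below control. Its dimmer probe sets moved less, at 212, 246 and 151 (-0.49) and 53.3, 37.6 and 41.7 (-0.08), and the median over the 3 was -0.49. TNC, the matrix glycoprotein tenascin C, read 3636 in control, 1241 in LATS2 and 1846 in LATS2N cells (log2 -0.98, 1.97-fold lower). By this probe set control was again the highest array and LATS2 the lowest. The second usable TNC probe set was dim, at 64.8 in control, 35.3 in LATS2 and 29.1 in LATS2N cells (-0.36). Both LATS2 arrays lay below the floor there, and the median over the usable TNC probe sets was -0.67.

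Cell cycle, signalling and RNA regulators followed. CCNF, the F-box protein cyclin F, read 1898 in control, 1087 in LATS2 and 1034 in LATS2N cells (log2 -0.88), and its second probe set agreed at -1.03. RPS6KA3, a growth factor-activated ribosomal S6 kinase, read 1306, 927 and 768 on control, LATS2 and LATS2N (-0.77, second probe set -0.21). IGF2BP1, an oncofetal mRNA-binding protein, read 1697, 1203 and 1068 (-0.67, other probe sets -0.25 and -0.43). In every probe set of CCNF and IGF2BP1 control was highest and LATS2N lowest. The brighter probe set of RPS6KA3 had the same order. Its second read 956 in control, 717 in LATS2 and 824 in LATS2N cells, with LATS2 lowest. GNL1, a GTP-binding protein, read 571 in control, 320.2 in LATS2 and 328 in LATS2N cells (log2 -0.80), with 4 of 4 usable probe sets below 0. NUDT3, a phosphatase of inositol pyrophosphates, read 1577 in control, 1817 in LATS2 and 927 in LATS2N cells (-0.77), so LATS2 was above control there and LATS2N below, but its other usable probe sets gave -0.20, -0.03 and -0.10. NFIA, a transcription factor of the nuclear factor I family, read 731 in control, 648 in LATS2 and 389 in LATS2N cells (-0.91), and its other usable probe sets spread from -0.73 to -0.08. DHCR7, which makes cholesterol in the last step of its synthesis, read 2921, 1609 and 1900.2 (-0.62) and ZNF106 1441, 1204 and 934 (-0.63).

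Of the bright lower genes read by 1 usable probe set, DGKD, a diacylglycerol kinase, read 1016 in control, 814 in LATS2 and 547 in LATS2N cells (log2 -0.89). SPATA2L read 870.2, 681 and 491 (-0.83), TMEM214 843, 745 and 511 (-0.72), the cationic amino acid transporter SLC7A2 1189, 1104 and 729 (-0.71) and the phospholipase PNPLA6 823, 852 and 507 (-0.70). LATS2N was the lowest array for all of them. ACTBP9 is an actin pseudogene and read 549, 461 and 273 (-1.01); its sequence is close to that of actin genes, so its origin is uncertain.

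Below a signal of 500, 11 genes were at least 2-fold higher and 4 lower with agreeing probe sets and both arrays above the floor. FABP3, a fatty acid-binding protein, read 76.8 in control, 206 in LATS2 and 257 in LATS2N cells (3.35-fold higher, log2 1.74, spread 0.48), and its second probe set gave 0.87. TNFSF10, the death ligand TRAIL, read 66.6 in control, 81.8 in LATS2 and 174 in LATS2N cells (2.61-fold higher), with 0.52 for its second probe set. COL18A1, a basement membrane collagen, had 84.3, 108 and 211 (log2 1.32, second probe set 0.53). LATS2N was the highest array in these 3. ZC4H2, PPP1R3E and PNPLA4 were among the 6 largest too, with log2 ratios of 1.26, 1.22 and 1.12. Their other usable probe sets gave 0.35 for ZC4H2, 0.88 and 0.55 for PPP1R3E and 0.19 for PNPLA4. Lower by the same rule were BCL2, TMCC2 (-1.13, second probe set -0.08) and the kinase gene CDC42BPG (-1.10, second probe set -0.21). LSM14B, an mRNA granule protein, was lower too, at 238, 169.7 and 113 (-1.07) with 5 of 5 usable probe sets below 0.

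NF-kB is a family of transcription factors held in the cytoplasm by IkB proteins until cytokine or Toll-like receptors release them, and its textbook targets include the neutrophil chemokines CXCL1, CXCL2, CXCL3 and CXCL8. Their promoters are shown because these 4 chemokine genes all read highest on LATS2N and because their sequences are alike. The 150 bases before each gene's start are given 5′ to 3′ on the gene's strand, from RefSeq on GRCh38.p14, at chr4:73869243-73869392 (CXCL1, plus strand), chr4:74099196-74099345 (CXCL2, minus), chr4:74038690-74038839 (CXCL3, minus) and chr4:73740419-73740568 (CXCL8, plus). Capitals mark the kB site core GGAATTTCC.
CXCL1: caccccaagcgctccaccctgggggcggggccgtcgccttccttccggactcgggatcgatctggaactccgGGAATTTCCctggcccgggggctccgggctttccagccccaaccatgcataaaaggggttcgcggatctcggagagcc
CXCL2: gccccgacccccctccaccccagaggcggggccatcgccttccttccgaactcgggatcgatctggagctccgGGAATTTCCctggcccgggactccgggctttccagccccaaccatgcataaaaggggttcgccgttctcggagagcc
CXCL3: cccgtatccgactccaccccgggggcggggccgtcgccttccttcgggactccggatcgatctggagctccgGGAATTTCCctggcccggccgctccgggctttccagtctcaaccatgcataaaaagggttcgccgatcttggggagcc
CXCL8: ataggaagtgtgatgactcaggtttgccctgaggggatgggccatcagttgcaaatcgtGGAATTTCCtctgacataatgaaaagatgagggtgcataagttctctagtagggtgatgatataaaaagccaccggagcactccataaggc

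The match starts 78 bases before the start of CXCL1 and CXCL3, 77 before CXCL2 and 91 before CXCL8. This 1 motif was searched on both strands in windows of 300 bases around the starts. It was found in 0.472% of 27305 promoters of the table and in 7 of the 17 list genes with a promoter there (41.2%), the others being ICAM1, NFKB1 and NFKBIA. The list is one of known NF-kB targets, so this share is a description and not independent of the choice. The windows of IL1B and IRAK2 do not hold these letters.

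CXCL1 read 3458 in control, 2411 in LATS2 and 5658 in LATS2N cells, a log2 ratio of 0.71 against a spread of 0.09, or 1.64-fold higher. CXCL8 read 1014 in control, 680.0 in LATS2 and 1547 in LATS2N cells (log2 0.61, second probe set 0.40). CXCL3 read 847, 484 and 1139 on control, LATS2 and LATS2N (0.43) and CXCL2 290.3, 198 and 319.7 (0.14). In all 4 genes LATS2N was the highest array and LATS2 the lowest, and the difference of CXCL2 was within the spread of 0.24. The CXCL1, CXCL2 and CXCL3 transcripts are similar in sequence, so their probe sets may share signal. The cytokine gene IL1B read 149.7 in control, 228 in LATS2 and 322 in LATS2N cells (log2 1.10, 2.15-fold higher), and its second probe set gave 1.23. Here LATS2 also lay above control. The chemokine gene CCL20, with 2915, 1446 and 3328, had a ratio of 0.19.

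The genes of the feedback inhibitors TNFAIP3 and NFKBIA also lay above 0, and those of the NF-kB subunits on the list lay below it. TNFAIP3, the ubiquitin-editing inhibitor A20, read 561 in control, 353 in LATS2 and 756 in LATS2N cells (0.43). NFKBIA, which encodes IkB alpha, read 1297, 1068 and 1409.7 (0.12), within the spread of 0.16 at this signal. TNFAIP2, a further member of the list, read 379, 182 and 540.0 (0.51). The subunits NFKB1, NFKB2 and RELB had ratios of -0.14, -0.36 and -0.19, and the mitochondrial superoxide dismutase SOD2 had -0.20. All these differences were under 1.5-fold. Of the 16 measured members of the list that reached the floor, 12 had a ratio above 0, 3 were at least 1.5-fold higher (4.86% of all genes were) and none was 1.5-fold lower (3.27% of all genes). The list median was 0.35, beside 0.02 over all genes. Without probe sets that may share targets, the median over the 9 members left was -0.14, with 4 above 0 and 5 below, and CXCL1 and IL1B were still at least 1.5-fold higher. The median for LATS2 against the same control array was -0.50.

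**Figure D3:**
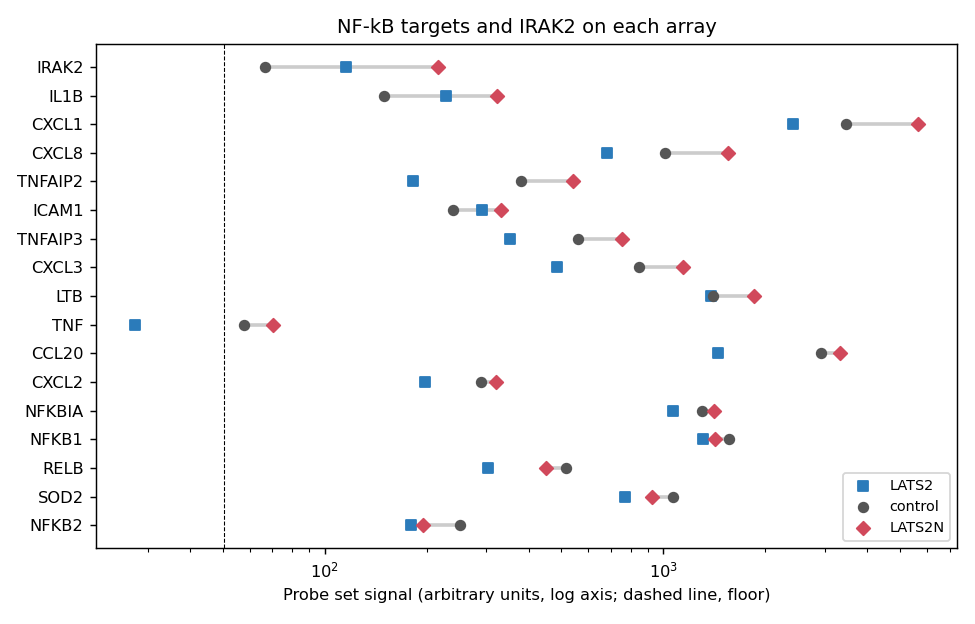
Signal of IRAK2 and of the 16 NF-kB list genes that reached the floor on each array (horizontal log axis, arbitrary units, dashed line at the floor of 50.5), ordered by ratio of LATS2N over control. Circles are control, squares LATS2 and diamonds LATS2N, 1 array each; the diamonds lie right of the circles in IRAK2 and the upper rows and left of them in NFKB1, RELB, SOD2 and NFKB2.

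Upstream of NF-kB, IRAK2, a kinase of interleukin-1 and Toll-like receptor signalling, read 66.5 in control, 116 in LATS2 and 216 in LATS2N cells (3.25-fold higher, log2 1.70, spread 0.48). It rests on 1 probe set, since the other 2 lay below the floor. IL1B, given above, is also a member of the receptor signalling list. The other members except IL1RN lay within 1.5-fold of control, among them the adaptor and kinase genes MYD88, TRAF6 and IRAK1. MYD88 read 1755, 1268 and 1772, TRAF6 363, 368 and 363 and IRAK1 12073, 12307 and 11536. The receptor antagonist IL1RN read 76.2, 32.3 and 17.1, at least 1.51-fold lower. Of 15 members 8 were above 0, and the median was 0.00. At least 1.5-fold higher were 2 (4.86% of all genes were) and 1 was lower (3.27%).

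Interferon-induced genes did not all lie on 1 side. In the list of classical interferon-stimulated genes, 10 of 14 measured members were above 0 with a median of 0.18. The antiviral enzyme gene OAS1 read 57.4 in control, 101 in LATS2 and 111 in LATS2N cells (log2 0.96, second probe set 0.73), and BST2, which tethers budding virus, 135, 192 and 217 (0.69). Against these, MX1 read 89.3 in control, 91.0 in LATS2 and 35.1 in LATS2N cells, at least 1.77-fold lower. ISG15, a ubiquitin-like modifier and the brightest of the list, read 998, 948 and 1331 (0.42). The members IFIT1, IFI27, IFI44 and IFI44L did not reach the floor. A longer list of interferon-inducible genes was put together after the values were seen and supports nothing on its own. There, 10 of 26 members were at least 1.5-fold higher (4.86% of all genes were) and none lower (3.27%), with a median of 0.33, which was 0.13 without probe sets that may share targets. PARP14 read 112, 113 and 229.6, PARP10 99.1, 142 and 215, the helicase gene DDX60 54.9, 60.9 and 127, while ISG20, an exonuclease, read 359, 322 and 553 and the cytokine gene IL15 was 2.25-fold higher. LATS2N was the highest array in all 5, with control at 112 or less in all but ISG20.

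Class I antigen presentation, another list chosen after the values were seen, had a median of 0.13 over 19 genes. The immunoproteasome subunits PSMB8 and PSMB9 were its members past 1.5-fold, both higher (4.86% of all genes were). PSMB8 read 166 in control, 136 in LATS2 and 353 in LATS2N cells (2.13-fold higher) and PSMB9 147, 209.5 and 269.5 (1.83-fold). LATS2N was highest in both. Of the bright genes, B2M, the light chain of class I molecules, read 16316, 18243 and 19228 (0.24), HLA-B 5158, 5619 and 5631 (0.13) and the peptide transporter TAP2 798, 562 and 668 (-0.26). Class I heavy chains are near-identical to each other, and their probe sets may share signal. Without such probe sets the median of the list was -0.11, and 1 of the 13 genes left was 1.5-fold higher.

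**Figure D4:**
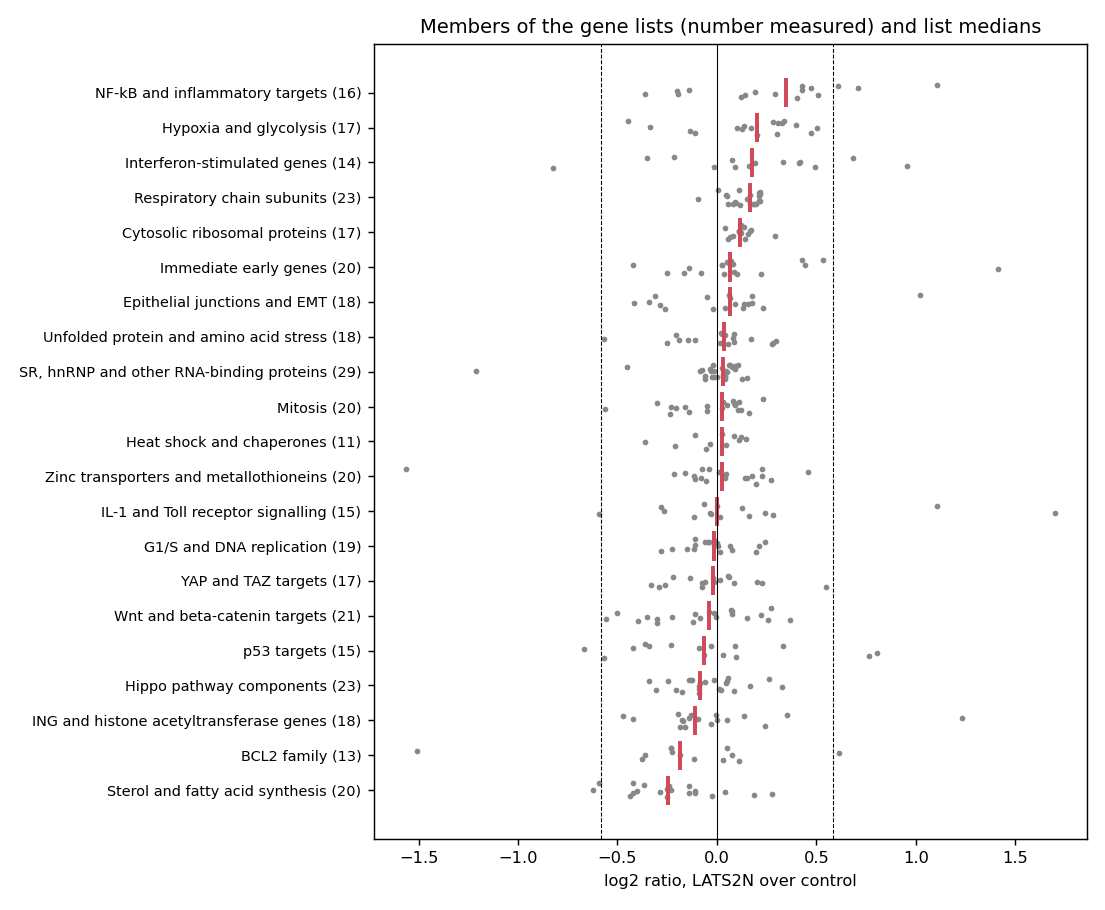
Log2 ratio of LATS2N over control (horizontal axis) for each measured gene (grey points) of 21 pathway lists, ordered by the list median (red bars), with the number of genes behind each list name. Dashed lines mark 1.5-fold; most medians lie within 0.2 of 0, and those of the NF-kB list (0.35) and the sterol list (-0.24) lie farthest out.

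Members of a list of chromatin and transcription regulators lay mostly below control. This list was also put together after values were seen and supports nothing on its own. Of its 42 members, 38 had a ratio below 0, and 9 were at least 1.5-fold lower with none 1.5-fold higher, at a median of -0.25 (3.27% of all genes were 1.5-fold lower). The 9 became 4 where the probe sets of a gene were summarised by their median. Without probe sets that may share targets, 3 of the 30 genes left were 1.5-fold lower and 1 was higher. KMT2D, a histone H3 lysine 4 methyltransferase, read 640.4 in control, 538 in LATS2 and 401 in LATS2N cells (log2 -0.67), with its other usable probe sets at -1.01 and -0.39. All 5 measured KMT2 genes, also picked after their values were seen, lay below 0, between -0.67 and -0.28. UBN1 and HIRA belong to 1 histone chaperone complex that deposits histone H3.3. UBN1 read 944 in control, 753 in LATS2 and 550.5 in LATS2N cells (-0.78, second probe set -0.28) and HIRA 6056, 2756 and 3817 (-0.67). The chromatin remodeller gene CHD7 read 2620.1 in control, 1711 in LATS2 and 1669 in LATS2N cells (-0.65), with 3 of 3 usable probe sets below 0.

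POLR2A, the largest subunit of RNA polymerase II, read 1467 in control, 1089 in LATS2 and 903 in LATS2N cells (-0.70). ARID1A, a subunit of the BAF remodelling complex, read 2306, 2009.9 and 1515 (-0.61), the elongation factor SUPT6H 1002, 972 and 660.5 (-0.60) and BPTF, a subunit of the NURF remodeller, 2409, 1902 and 1601 (-0.59). In these 4 genes every usable probe set was below 0 and LATS2N was the lowest array. TNRC18, a large nuclear protein outside the list, read 506, 414 and 305 (-0.73, other usable probe sets -0.44 and -0.23). The acetyltransferase genes CREBBP and EP300 had -0.53 and -0.22. Members near control were SUPT16H (-0.01), PBRM1 (-0.01) and CHD3 (-0.01), and the 4 above 0 were SRCAP (0.03), NSD2 (0.13), CHD2 (0.13) and the dim SETD1A (0.31). The LATS2 array, set against the same control, had a list median of -0.04.

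Ratios of bright genes went with the genomic span of the gene. The genes were put into 5 equal groups by their span in the RefSeq table of GRCh38.p14. From short to long, the median log2 ratio was 0.06 (median span 5.25 kb, 1468 genes), 0.03, 0.01, -0.01 and -0.05 (142 kb, 1467 genes). The share of genes above 0 was 63.5% in the shortest and 41.0% in the longest group. In the shortest group 24 of 1468 genes were 1.5-fold higher and 5 lower, and in the longest 11 of 1467 were higher and 23 lower. Over all bright genes 1.04% were 1.5-fold higher and 0.749% lower. Whether the span medians hold under other scalings was not tested. On LATS2 against the same control the medians of the shortest and longest groups were 0.06 and 0.01. What part the span has in single genes was not tested.

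**Figure D5:**
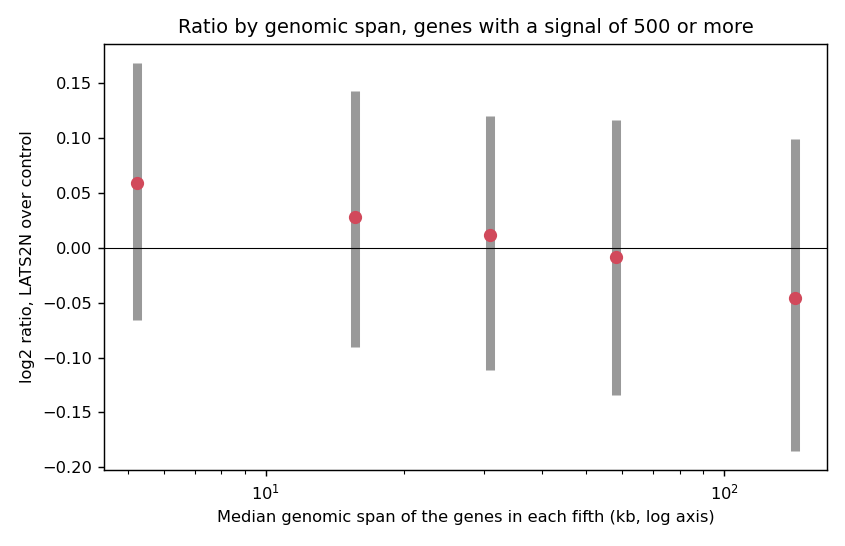
Median log2 ratio of LATS2N over control (red points, vertical axis) and the range from lower to upper quartile (grey bars) in 5 equal groups of bright genes, placed at the median genomic span of each group (horizontal log axis, kb). The medians go from 0.06 in the shortest to -0.05 in the longest group, while the quartile ranges overlap throughout.

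Short, highly expressed housekeeping genes lay slightly above control. All 17 measured members of the cytosolic ribosomal protein list had ratios above 0, from 0.04 to 0.29 with a median of 0.12, and none reached 1.5-fold. This direction did not hold under other scalings, with a median of 0.01 after quantile normalization and after correction of the trend with signal. Of the 23 respiratory chain subunits 22 were above 0, at a median of 0.16, which was 0.08 and 0.10 under those scalings. COX4I1, a subunit of cytochrome c oxidase, read 14552, 15082 and 16898 (0.22) and ATP5F1A, a subunit of ATP synthase, 23634, 25030.1 and 27329 (0.21).

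Transcripts encoded by the mitochondrial genome differed more than the nuclear subunits. Of the 13 protein genes of that genome, 7 had a probe set with 1 symbol, and these were looked at after their values were seen. All 7 were above 0, from 0.40 to 0.68 with a median of 0.48, which was 0.42 after quantile normalization. COX1 read 7623 in control, 16544 in LATS2 and 12230.1 in LATS2N cells (1.60-fold higher), ND4 15439.8, 24340.5 and 21516 (0.48) and ATP6 14915, 21306 and 21041 (0.50). In all 3 control was the lowest array and LATS2 the highest. They come from 1 polycistronic transcript pair and are not independent of each other. The 18S ribosomal RNA probe sets given above moved the other way, and whether both share a source was not tested.

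Cholesterol synthesis runs from acetyl-CoA over HMG-CoA and squalene to cholesterol, and its genes are targets of SREBP transcription factors. Of the 20 measured sterol and fatty acid synthesis genes, 17 were below 0, 2 were at least 1.5-fold lower (3.27% of all genes were) and none was 1.5-fold higher, with a median of -0.24 that stayed between -0.25 and -0.23 under all 8 alternative settings. From the early steps, HMGCS1, which makes HMG-CoA, read 655 in control, 333 in LATS2 and 488 in LATS2N cells (-0.42). The later enzymes SQLE and LSS, which form squalene epoxide and lanosterol, read 3639.5, 2711 and 2689 (-0.44) and 2328, 1498 and 1759.6 (-0.40). DHCR7, named above, was the lowest member. INSIG1, which retains SREBP in the endoplasmic reticulum, read 798 in control, 308 in LATS2 and 529 in LATS2N cells (-0.59, other probe sets -0.49 and 0.02). By the representative probe sets LATS2N lay between control and LATS2 in INSIG1, HMGCS1, LSS and DHCR7. The second DHCR7 probe set read 1594 in control, 1370 in LATS2 and 1230 in LATS2N cells (-0.37), with LATS2N lowest. The dimmest INSIG1 probe set read 318, 114 and 323 on the same arrays, with LATS2N at the level of control. For fatty acids, FASN read 2024, 1696 and 1509 (-0.42) and SCD, a desaturase, 12907, 7616 and 10603 (-0.28), while the elongase ELOVL6 read 2729, 2742 and 3307 (0.28).

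Hypoxia-inducible and glycolytic genes were on the other side. Of 17 measured members 13 were above 0, with a median of 0.20 (0.12 after quantile normalization), and none reached 1.5-fold. ALDOC, an aldolase, read 344 in control, 137 in LATS2 and 488 in LATS2N cells (0.50). NDRG1 read 759.7, 398 and 999 (0.40), BNIP3L, a mitophagy receptor, 1591, 1555 and 2211 (0.47) and PGK1, a glycolytic kinase, 19714, 20658 and 24431 (0.31) with 6 of 6 probe sets above 0. LATS2N was the highest array in these 4. VEGFA and the hexokinase gene HK2 had -0.45 and -0.33.

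Components of the Hippo pathway itself lay close to control. Of 23 measured members 9 were above 0 and 14 below, none reached 1.5-fold, and the median was -0.08. Among the kinases, TAOK1, which acts above MST1 and MST2, read 2075 in control, 1841 in LATS2 and 1637 in LATS2N cells (-0.34), with 4 of 4 usable probe sets below 0. STK3, which encodes MST2, read 998, 1156 and 1251 (0.33), STK4, which encodes MST1, 2306, 2855 and 2178 (-0.08) and LATS1 405, 421 and 328 (-0.30). LATS2N was lowest of the 3 arrays in TAOK1, STK4 and LATS1 and highest in STK3, by less than 1.5-fold in each. The upstream scaffold NF2 had -0.13, and the adaptors SAV1, MOB1A and MOB1B had 0.16, 0.01 and -0.09. At the effector end YAP1 read 6068, 5591 and 5701 (-0.09), WWTR1, which encodes TAZ, 359.8, 304 and 329 (-0.13) and TEAD4 4666, 4552 and 4131 (-0.18).

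Targets of YAP and TAZ had a median of -0.02 over 17 measured genes, 7 above 0 and 10 below, and none reached 1.5-fold. With the floor set at the 25th percentile the median changed sign, to 0.01. CCN1, a matricellular protein, read 66.8 in control, 136 in LATS2 and 97.6 in LATS2N cells (0.55), where the spread between probe sets is 0.48. The kinase receptor gene AXL read 175, 125 and 150.3 (-0.22), and PTPN14, which binds YAP, 1457, 1716 and 1158 (-0.33). CCN2 and ANKRD1, the most used reporters of the pathway, did not reach the floor on control or LATS2N, so their change was not detectable. Only 9 of the 17 had a signal of 500 or more.

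The Wnt and beta-catenin target list had a median of -0.04, with 8 of 21 above 0 and none at 1.5-fold. AXIN2, a negative feedback target, read 5369, 5577 and 5315 (-0.01) and MYC 24338, 28341 and 28423 (0.22). The largest differences were those of PROX1, a homeobox factor of colorectal tumours, at 1967, 1491 and 1337 (-0.56), and LGR5, the stem cell receptor for R-spondin, at 569, 331 and 402 (-0.50). The Wnt inhibitor genes DKK1 and DKK4 had -0.40 and 0.27. In PROX1 LATS2N was the lowest array, and in LGR5 the lowest was LATS2.

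Proliferation genes differed little. The median was -0.01 over 19 genes of G1/S and DNA replication and 0.03 over 20 genes of mitosis, with none at 1.5-fold, and the mitosis median was -0.01 after correction of the trend with signal. CCNB1, AURKB and CDC20 had ratios of 0.12, 0.09 and 0.09. MKI67, the proliferation antigen, stood apart at 3300.4 in control, 2439 in LATS2 and 2234 in LATS2N cells (-0.56), with 4 of 4 probe sets below 0 and LATS2N lowest. Kinesin genes, a family of motor proteins, were picked after their values were seen and are given as values only. They were below 0 in 25 of 31, at a median of -0.11 (-0.08 after quantile normalization). Of the 31, 2 were at least 1.5-fold lower, beside 3.27% of all genes.

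Of 15 targets of p53, 2 were at least 1.5-fold higher (4.86% of all genes were) and 1 lower (3.27%), and the median was -0.06. CDKN1A, the cyclin-dependent kinase inhibitor p21, read 418 in control, 260.1 in LATS2 and 263 in LATS2N cells (-0.67), with both LATS2 arrays at the same lower level. PHLDA3, an inhibitor of AKT signalling, read 129 in control, 85.0 in LATS2 and 226 in LATS2N cells (0.81, second probe set 0.23), and the cytokine gene GDF15 read 110.4, 198 and 188 (0.77) by 1 probe set, while its other 2 lay below the floor on every array. By its brighter probe set PHLDA3 was highest on LATS2N and lowest on LATS2. The second read 96.5 in control, 96.7 in LATS2 and 114 in LATS2N cells. In the BCL2 family, 8 of 13 measured genes were below 0, at a median of -0.19. BCL2, the founding inhibitor of apoptosis, read 179.6 in control, 65.1 in LATS2 and 63.2 in LATS2N cells (2.84-fold lower, log2 -1.51, spread 0.48). Its second probe set read 98.0, 74.3 and 70.6 (-0.47), and both LATS2 arrays lay below control in each. The pore-forming BAX and BAK1 had -0.36 and -0.23, and MCL1 and BCL2L1 -0.11 and -0.23. BMF, a BH3-only protein, read 14.9, 18.3 and 77.1, at least 1.53-fold higher.

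Most other members of the lists that hold TAF15 and ING4, which had the largest bright ratios, lay within 1.5-fold of control. In the list of SR, hnRNP and other RNA-binding proteins, TAF15 was the only one of 29 genes past 1.5-fold. Over all genes 4.86% were 1.5-fold higher and 3.27% lower. The list median was 0.03 (-0.02 after quantile normalization). EWSR1, the relative of TAF15, read 7359.6, 8014 and 7289 (-0.01), and HNRNPDL had -0.45 with probe sets in both directions. In the list of ING and acetyltransferase complex genes, ING4 was the only one of 18 past 1.5-fold, and the median was -0.11. ING1, ING2, ING3 and ING5 had ratios of -0.17, -0.19, -0.13 and 0.05, and the catalytic subunits KAT5 and KAT7 0.35 and -0.00. Among 20 zinc transporters and metallothioneins, SLC30A3, a zinc exporter of vesicles, was alone past 1.5-fold. It read 300.2 in control, 345 in LATS2 and 102 in LATS2N cells (2.95-fold lower), by 1 probe set. The zinc-induced MT2A and MT1X had 0.18 and 0.15. The count of 1 gene past 1.5-fold in each of these lists lies near the shares over all genes.

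Stress responses showed medians near 0, at 0.03 for 18 genes of the unfolded protein and amino acid response and 0.03 for 11 heat shock genes (-0.07 after quantile normalization), with none at 1.5-fold in either. HSPA5, the main chaperone of the endoplasmic reticulum, had -0.15, and ATF4 0.06. Immediate early genes had a median of 0.06 over 20 genes. NR4A1 read 46.9, 51.4 and 134 by its representative probe set, at least 2.66-fold higher, but its other 2 probe sets had -0.09 and -1.51. EGR1 and FOSL1 had 0.22 and 0.45.

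Markers of an epithelial line were bright on every array. EPCAM read 16608 in control, 18744 in LATS2 and 18756 in LATS2N cells, and the keratin genes KRT8, KRT18 and KRT19 were brighter still, with 23812 as the lowest of their 9 signals. Intestinal markers were mixed, since VIL1 read 5013, 3948 and 4666 and CDH17 438, 449 and 393, while LGALS4 lay below the floor and CDX1 reached 55.0 at most. Over 12 intestinal epithelial markers the median was 0.07 (-0.02 after quantile normalization), and their signals summed to 124928 in control, 131037 in LATS2 and 132479 in LATS2N cells. In the junction and EMT list, CLDN15, a tight junction claudin, read 270.4 in control, 400.4 in LATS2 and 549 in LATS2N cells (2.03-fold higher), but its second probe set read 117, 119 and 77.0 (-0.60). CDH1, the epithelial cadherin, had -0.31 and vimentin (VIM) 0.18.

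Most markers of other cell types were dim or below the floor. Of 8 leukocyte markers 5 reached the floor, with sums of 575, 457 and 563 in control, LATS2 and LATS2N cells, and the defining genes PTPRC and CD3E lay below the floor. PECAM1 alone of 5 endothelial markers reached it, at 142, 85.0 and 91.6 (-0.64), with probe sets in both directions. For fibroblasts and smooth muscle, 6 of 10 markers reached the floor, with sums of 2056, 2708 and 2529. LUM, the matrix proteoglycan lumican, made up most of these sums at 1519, 1884 and 1635 (0.11), with its 2 usable probe sets in opposite directions. Of the 6 markers 3 were at least 1.5-fold higher, beside 4.86% of all genes. These were COL1A1, ACTA2 (46.7 in control, at least 1.98-fold higher) and DES (57.5, 51.3 and 95.1). COL1A2, COL3A1, PDGFRA and PDGFRB lay below the floor, and the median of the list was 0.43, or -0.004 without probe sets that may share targets.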

How the data were processed

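Total RNA of 3 human cell line samples (control, LATS2, LATS2N) was hybridised to Affymetrix arrays, 1 array per group. The values deposited by the authors are linear probe set intensities, and the submitters' processing notes name MAS5; version and settings are not given in the sources used here. Of 54675 probe sets, 62 are controls, 41091 had 1 gene symbol in the platform's annotation, 1801 had several and 11721 were not listed, and 41037 of those with 1 symbol matched the RefSeq table of GRCh38.p14. The brightest probe set (highest mean log2 signal over the 3 arrays) stood for each of 19775 genes, 9252 of which had 1 probe set. A probe set was usable where the brighter of the control and LATS2N signals reached the floor of 50.5.

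A gene counted as called by size alone, past 2-fold, or 1.5-fold with a signal of 500 or more. The bright genes named are the 15 largest ratios per direction at 500 or more with 2 or more usable probe sets all in 1 direction, the 6 largest with 1 usable probe set, up to 6 dimmer 2-fold genes with agreeing probe sets, every bright 2-fold gene, and up to 5 members per list and direction past 1.5-fold. Comparisons, members, lists and naming rules were chosen with earlier results of these data known, and 8 lists after their values were seen. The kinesin and KMT2 families were also picked after their values were seen. Alternatives were other floors, the median over probe sets, leaving out probe sets that may share targets (suffix _s_at, _x_at or _a_at), quantile normalization, median centring and a trend correction. Python 3.11.15, numpy 2.4.6, pandas 2.3.3 and statsmodels 0.14.6 were used.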

Additional observations from a re-analysis of the deposited data

How the results depend on the processing

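The number of arrays and dim signals limit these results. The 2-fold counts depend on the floor: 870 genes were higher and 779 lower at a floor at the 25th percentile of the signals, 1721 and 1754 with no floor, and 0 and 1 at a floor at the 75th percentile. A lower floor admits dim signals and a higher one compresses ratios by construction. Under the other settings 100 to 123 genes were 2-fold higher and 62 to 88 lower. The bright 1.5-fold counts lay between 54 and 84 higher and between 38 and 55 lower, and were 23 and 22 over agreeing probe sets only, a setting chosen after seeing the data. Of the values that the 66 named genes had under 8 alternatives, 456 moved by less than the spread between probe sets, 35 by more, and 0 changed sign. Some named genes had no value at the floor at the 75th percentile or without probe sets that may share targets. CXCL8, APOC1 and COL1A1 were lost in the second of these settings. Among list medians 241 moved by less than the median spread and 13 by more, and the leukocyte and endothelial lists had no gene left at the higher floor. Of the latter, the NF-kB, class I and fibroblast medians changed sign without probe sets that may share targets (-0.14, -0.11 and -0.004), and the diacylglycerol kinase median did with no floor (0.02). Some medians close to 0, such as those of the heat shock and mitosis lists, also changed sign, by less than that spread. No paired analysis was possible because each group holds 1 array and the labels give no replicate numbers.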

Other observations

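Some gene families outside the pathways above were picked after their values were seen and are given as values only. Of the FXYD and TMEM176 genes 6 of 8 that reached the floor were above 0, and FXYD2 and FXYD4 were below it (-0.30 and -0.04, both dim). TMEM176B and TMEM176A, neighbouring genes on chromosome 7 that encode related membrane proteins, read 116 in control, 225 in LATS2 and 358 in LATS2N cells and 359.9, 677 and 649.9 in the same order (3.08-fold and 1.81-fold higher on LATS2N). The trefoil factors protect mucosal surfaces. TFF1 read 57.4 in control, 38.9 in LATS2 and 132 in LATS2N cells (log2 1.20), TFF2 530.3, 597 and 775 (0.55) and TFF3 384, 241 and 561 (0.54), so LATS2N was the highest array in all 3. Of the secreted protease and trefoil genes 9 of 11 that reached the floor were above 0, and the protease genes ST14 and KLK5 were below it (-0.29 and -0.01). PLAU, the urokinase gene, read 105 in control, 55.4 in LATS2 and 208 in LATS2N cells (1.98-fold higher) with both usable probe sets above 0, and the kallikrein genes KLK6 and KLK10 read 335, 277 and 507 and 27.3, 89.0 and 154. For KLK10 the control lay below the floor, and LATS2N was at least 3.06-fold higher.

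The BEX and TCEAL genes form a cluster of small acidic proteins on the X chromosome. All 9 that reached the floor were above 0, with a median log2 ratio of 0.34. TCEAL1 read 649 in control, 938 in LATS2 and 1003 in LATS2N cells (0.63) and TCEAL8 555, 642 and 819.6 (0.56), whereas BEX2 had 0.02. Diacylglycerol kinases convert the second messenger diacylglycerol into phosphatidic acid. Of 7 that reached the floor 5 were below 0 and 4 at least 1.5-fold lower (3.27% of all genes were), or 2 of 6 without probe sets that may share targets. Among them were DGKD and DGKZ, which read 1016, 814 and 547 and 2101, 1268 and 1152. The list median was -0.60, but -0.05 where the probe sets of a gene were summarised by their median, and 0.02 without a floor. The long noncoding RNA MALAT1 has 12 probe sets, which did not go 1 way: 1 read 97.3 in control, 95.1 in LATS2 and 697 in LATS2N cells, a log2 ratio of 2.84, and another 839, 430.1 and 668 (-0.33). CTSZ, a lysosomal cathepsin, read 6446, 4452 and 3574 (-0.85) by its bright probe set and 21.0, 95.1 and 65.0 (0.36) by a dim one.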
